A study of Homo sapiens with 6 samples.

Results

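The S100 genes examined here were S100A2, S100A4, S100A6, S100A7, S100A8, S100A9, S100A10, S100A11, S100A14 and S100A16. They were chosen by name from the S100 cluster on chromosome band 1q21, and make up 10 of the 20033 protein-coding genes of GENCODE release 44 on the assembled chromosomes. Each gene was taken with 5 kb on either side, in human genome build hg38. Open chromatin was mapped by ATAC-seq, which marks accessible DNA by insertion of a transposase, in MCF10A, an established non-tumorigenic line of human mammary epithelial cells labelled wild type. The cells were kept for 30 min in phosphate-free HHBSS, a HEPES-buffered salt solution, and then for another 30 min with no addition (Ctrl), with 50 μM TPA, tris(2-pyridylmethyl)amine, a chelator of Zn2+, or with 30 μM ZnCl2. There were 2 libraries for each condition, called replicates in the labels, and all 6 came from this single line. The study's methods call the replicates biological and its results call them technical, so a difference between libraries may be technical.

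S100 proteins are small EF-hand proteins that bind Ca2+ as dimers, and several of them also bind Zn2+ at the dimer interface. S100A7 (psoriasin) and the pair S100A8 and S100A9 (calprotectin) withhold Zn2+ and other metals from microbes at epithelia and in neutrophils. Other members act mainly inside the cell, for example S100A10 and S100A11 as partners of annexins. An open region over the start of a gene shows that the DNA there can be reached by the transposase, and it is not a measure of transcription.

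Each library came as a list of open regions with a score. Scores were compared only as ranks, because neither read counts nor the scale of the score were given. The score percentile of a region is the percentage of regions in the same list with a lower score, so that 0 is the bottom of the list and values near 100 are the top. The start site is the 5′ end of the gene in GENCODE, and a start site was called open where a region covered it. The lists held 18887 to 44641 regions, with median widths of 1070 to 2070 bp. ZnCl2 replicate 2 had the shortest list and the widest regions, and Ctrl replicate 2 had the longest list. The depth of the libraries is unknown.

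The identity of the cells was checked on marker genes. Of 8 epithelial and basal markers, 2 to 7 had an open start site in a library, and the lowest count was in ZnCl2 replicate 2. LAMB3 and ITGB4, which encode parts of the anchoring complex of basal epithelial cells, were open in 6 of 6 libraries. KRT5 and KRT17 were open in 5, KRT14 in 4, CDH1 in 3 and EPCAM in 1, while TP63, the basal transcription factor, was open in 0. Only the 5′ end of each marker gene was checked, so the value of TP63 does not cover any start site inside the gene. Of 4 luminal hormone-receptor markers, FOXA1 was open in 6 libraries and ESR1, PGR and GATA3 in 0. None of the 4 leukocyte markers and none of the 2 endothelial markers was open in any library. Of 2 fibroblast markers, COL1A1 was open in Ctrl replicate 2 only.

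The sequences before 5 of the start sites are shown because these genes span the range of the results, from start sites open in every library to one open in none. Each is the 250 bases before the start site in RefSeq, GRCh38.p14, read 5′ to 3′ along the gene. Capitals mark matches on either strand to an AP-1 site (TGANTCA), a metal response element core (either the letters TGCACNC, or in its other form the letters TGCGCNC), to the TATA box (the letters TATAAA) or to the GC box (with the letters GGGCGG).
S100A2, chr1:153565845-153566094, minus strand: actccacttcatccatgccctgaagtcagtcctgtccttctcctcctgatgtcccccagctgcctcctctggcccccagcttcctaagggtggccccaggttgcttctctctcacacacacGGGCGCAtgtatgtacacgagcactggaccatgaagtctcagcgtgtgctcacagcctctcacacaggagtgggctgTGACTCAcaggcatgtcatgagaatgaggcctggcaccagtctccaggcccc
S100A6, chr1:153535992-153536241, minus strand: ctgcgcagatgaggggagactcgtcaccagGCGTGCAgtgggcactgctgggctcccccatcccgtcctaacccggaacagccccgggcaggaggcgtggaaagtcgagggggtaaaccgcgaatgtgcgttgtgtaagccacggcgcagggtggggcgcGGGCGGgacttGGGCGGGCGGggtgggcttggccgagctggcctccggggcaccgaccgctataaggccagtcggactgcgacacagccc
S100A7, chr1:153460652-153460901, minus strand: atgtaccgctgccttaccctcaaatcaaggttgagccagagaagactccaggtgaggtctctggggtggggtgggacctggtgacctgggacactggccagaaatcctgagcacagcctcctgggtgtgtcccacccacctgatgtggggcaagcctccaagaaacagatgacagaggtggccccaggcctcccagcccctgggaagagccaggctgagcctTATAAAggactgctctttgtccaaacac
S100A8, chr1:153391074-153391323, minus strand: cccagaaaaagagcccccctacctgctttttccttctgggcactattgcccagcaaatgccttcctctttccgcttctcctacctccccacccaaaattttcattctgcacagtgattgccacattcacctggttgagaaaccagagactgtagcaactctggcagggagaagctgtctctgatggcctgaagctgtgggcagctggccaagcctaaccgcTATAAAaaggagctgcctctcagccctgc
S100A9, chr1:153357604-153357853, plus strand: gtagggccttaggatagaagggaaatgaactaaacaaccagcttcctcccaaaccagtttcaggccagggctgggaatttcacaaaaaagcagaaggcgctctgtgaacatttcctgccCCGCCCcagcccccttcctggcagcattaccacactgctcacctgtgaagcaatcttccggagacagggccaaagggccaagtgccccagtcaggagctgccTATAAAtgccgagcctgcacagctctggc

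In RefSeq, a promoter window of 300 bases, 250 before the start site and 50 after it, was found for 10 of 10 genes, at the GENCODE canonical start in each case. S100A10, S100A6 and S100A11 had 32, 31 and 22 CG dinucleotides in this window, against a median of 14 over 35116 RefSeq promoters. The other members had 2 to 8, and the fewest were 2 in S100A8 and 3 in both S100A7 and S100A16. A TATA box was present in S100A4, S100A7, S100A8 and S100A9, beginning 28 to 31 bases before the start site, and 11.5% of all promoters held these letters. A GC box was present in S100A6, S100A9, S100A10 and S100A11, against 45% of all promoters. The metal response element core, the letters bound by the Zn2+-sensing factor MTF1, was present in S100A2, S100A6 and S100A11, against 29.6%. The AP-1 letters were found in S100A2 alone, against 7.71%. The GC box and the metal response element core overlapped in none of these windows, and the 2 GC boxes of S100A6 nearest its start site overlap each other. A match is a description of the letters and does not show that a factor was bound.

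Of the 10 genes, 6 had an open start site in 6 of 6 libraries, namely S100A2, S100A6, S100A10, S100A11, S100A14 and S100A16. This was the case for 39.3% of all protein-coding genes. S100A4 and S100A8 were open in 5 libraries, as were 7.04% of all genes, and S100A9 was open in 4, as were 4.12%. S100A7 was open in 0 libraries, as were 39.8% of all genes. By library, 7 and 9 members were open in Ctrl, 9 and 9 in TPA, and 9 and 7 in ZnCl2. The share of all protein-coding genes with an open start site was 46.5% and 57.5% in Ctrl, 50.4% and 52.6% in TPA, and 55.7% and 43.6% in ZnCl2. The libraries with 7 open members, Ctrl replicate 1 and ZnCl2 replicate 2, were also those with the shortest lists. When each list was limited to its 18887 top regions, 7, 8, 8, 7, 7 and 7 members were open in the libraries in the same order.

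**Figure D1:**
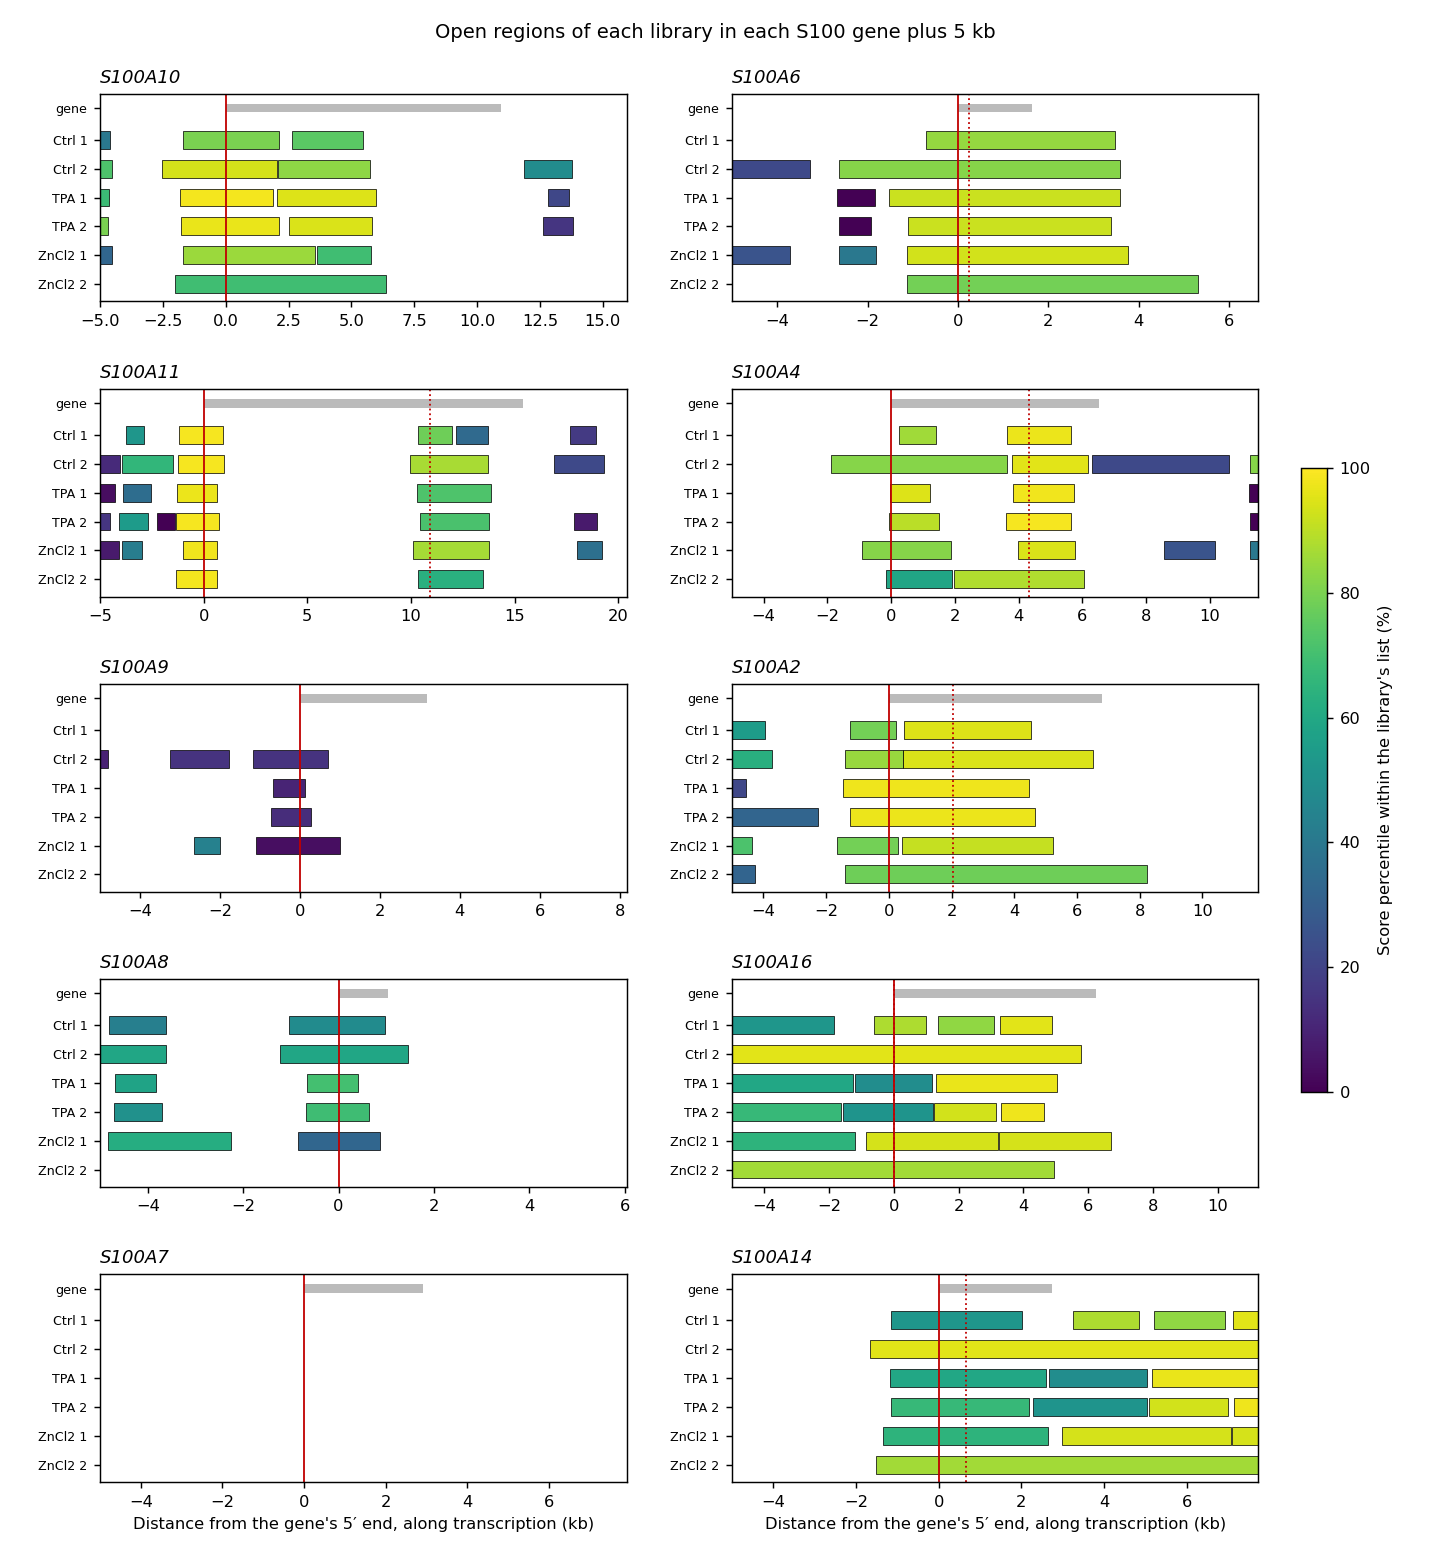
Open regions in each of the 10 S100 genes plus 5 kb on either side, as distance in kb from the 5′ end of the gene (solid red line) along the direction of transcription, with a row for each library. Grey bars are the genes, dotted red lines the canonical start where it lies elsewhere, and colour is the score percentile in the library's list. S100A7 has no region in any row, S100A9 has only dark, low-ranked regions at its start, and in Ctrl replicate 2 and ZnCl2 replicate 2 a single region covers both S100A14 and S100A16.

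S100A7 (chr1:153457744-153460651, minus strand) encodes psoriasin, a Zn2+-binding antimicrobial protein of the epidermis. No library had an open region anywhere in the gene or within 5 kb of it, in a window of 12908 bp. The nearest region in any library lay 28940 to 29430 bp from the gene. It ranked at percentiles of 81.7 and 78.4 in Ctrl, 90.4 and 93.3 in TPA, and 65.7 and 43.9 in ZnCl2. Its upstream sequence, shown above, has a TATA box and few CG dinucleotides, as do those of S100A8 and S100A9. S100A4 has a TATA box too, and S100A16 has as few CG dinucleotides as S100A7. The promoter windows of S100A4 and S100A16 each overlapped an open region in 6 libraries.

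S100A8 (chr1:153390032-153391073, minus strand) and S100A9 (chr1:153357854-153361023, plus strand) encode the subunits of calprotectin. The start-site region of S100A8 had score percentiles of 47.9 and 59 in Ctrl, 70.3 and 69.1 in TPA, and 32.5 in ZnCl2 replicate 1, with no region in ZnCl2 replicate 2. The TPA libraries were therefore the highest. Its width was 2030 and 2670 bp in Ctrl, 1070 and 1310 bp in TPA, and 1730 bp in ZnCl2 replicate 1, so that the higher-ranked TPA regions were also the narrower ones. A further region lay upstream of S100A8 in the same 5 libraries, and its edge nearest to the start site was at -2258 bp, in ZnCl2 replicate 1. The start-site region of S100A9 had percentiles of 14.6 in Ctrl replicate 2, 10.1 and 12.6 in TPA, and 3.52 in ZnCl2 replicate 1. It was missing in Ctrl replicate 1 and ZnCl2 replicate 2. Among start-site regions of all protein-coding genes, at most 3.29% ranked lower than that of S100A9 in any of the 4 libraries. The partner genes of calprotectin thus differed in rank in each library where both were open, S100A8 by far the higher.

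S100A11 (chr1:152032506-152047907, minus strand) encodes a partner of annexin A1. Its start-site region ranked at percentiles of 98.7 and 98.8 in Ctrl, 97.1 and 98.7 in TPA, and 97.9 and 98.2 in ZnCl2. In Ctrl replicate 1 it was number 321 from the top of 25031 regions, and in TPA replicate 1, where it was lowest, number 998 of 35902. It was also of even width, from 1630 to 2220 bp. The canonical transcript of S100A11 starts 10903 bp downstream of this site, at the promoter with 22 CG dinucleotides. The region there was open in 6 of 6 libraries too, at percentiles of 77.8 and 86.8 in Ctrl, 72.2 and 71.1 in TPA, and 86.5 and 63.6 in ZnCl2. The top rank of S100A11 thus belonged to the 5′ end of the annotated gene and not to its canonical start.

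S100A10 (chr1:151982915-151993859, minus strand) encodes p11, which binds annexin A2 and does not depend on Ca2+. The start-site region had percentiles of 79.9 and 93.4 in Ctrl, 98.1 and 96.7 in TPA, and 85 and 69.3 in ZnCl2. Both TPA libraries were above the other 4 libraries. Its width was 3800 and 4560 bp in Ctrl, 3700 and 3910 bp in TPA, and 5290 and 8410 bp in ZnCl2. In ZnCl2 replicate 2 that region took in the stretch from 6378 bp downstream to 2031 bp upstream of the start site. The other 5 libraries had a second region inside the gene, which in TPA ranked at 94.9 and 94.4.

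S100A6 (chr1:153534599-153536244, minus strand) encodes calcyclin. A single region covered the whole gene in each library, 4180 to 6440 bp wide. Its percentile was 84.1 and 81.7 in Ctrl, 91.8 and 92 in TPA, and 93.1 and 78.7 in ZnCl2. The TPA libraries were above the Ctrl libraries, and the ZnCl2 libraries had both the highest and the lowest of the 6 values.

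S100A4 (chr1:153543613-153550136, minus strand) encodes a protein linked to cell motility and metastasis. Its start-site region had percentiles of 81.7 in Ctrl replicate 2, 94.6 and 89.6 in TPA, and 81.7 and 58.8 in ZnCl2. In Ctrl replicate 1 a region at percentile 85.6 began 246 bp downstream of the start site and did not cover it. The canonical start lies 4330 bp downstream, and the region over it ranked at 96.9 and 95.4 in Ctrl, 98 and 98.8 in TPA, and 94.4 and 88.2 in ZnCl2. It was open in 6 of 6 libraries, and both TPA libraries were above the other 4. The start site of the neighbouring gene S100A3 lay in the same region as the 5′ start of S100A4 in 5 libraries, so these genes have no separate values there.

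S100A2 (chr1:153561108-153567890, minus strand) encodes a Zn2+-binding protein found in epithelial nuclei. Its start-site region had percentiles of 78.9 and 84.5 in Ctrl, 97.5 and 97 in TPA, and 78.6 and 77.9 in ZnCl2. Both TPA libraries were above all others. The width was 1450 and 1840 bp in Ctrl, 5930 and 5880 bp in TPA, and 1940 and 9630 bp in ZnCl2. In both TPA libraries and in ZnCl2 replicate 2, a single region reached over the 5′ end and the canonical start, which lies 2046 bp downstream and is the one preceded by the sequence shown above. In both Ctrl libraries and ZnCl2 replicate 1 these positions lay in separate regions, and the one over the canonical start ranked at 94.7, 94.3 and 91.2. At the canonical start the TPA libraries were still above all others, by a smaller margin.

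S100A14 (chr1:153614255-153616986, minus strand) and S100A16 (chr1:153606886-153613145, minus strand) are neighbouring genes, expressed in many epithelia. In Ctrl replicate 2 a single region of 11290 bp covered both start sites, at percentile 95.7, and in ZnCl2 replicate 2 a region of 10290 bp did, at 86.3. In the other 4 libraries each gene had its own region. That of S100A14 then ranked at 52.4 in Ctrl replicate 1, 59.4 and 67 in TPA, and 64.8 in ZnCl2 replicate 1. That of S100A16 ranked at 87.7 in Ctrl replicate 1, 48.6 and 51.8 in TPA, and 93.4 in ZnCl2 replicate 1. The TPA libraries were therefore the lowest for S100A16. Within 5 kb of S100A16, however, the highest-ranked region stood at 95.6 and 95.7 in Ctrl, 96.7 and 97.6 in TPA, and 93.4 and 86.3 in ZnCl2. In TPA it lay inside the gene, beginning 1315 bp from the start site in replicate 1 and 3305 bp in replicate 2. The part of joined and separate calls in the low TPA rank of S100A16 was not tested.

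**Figure D2:**
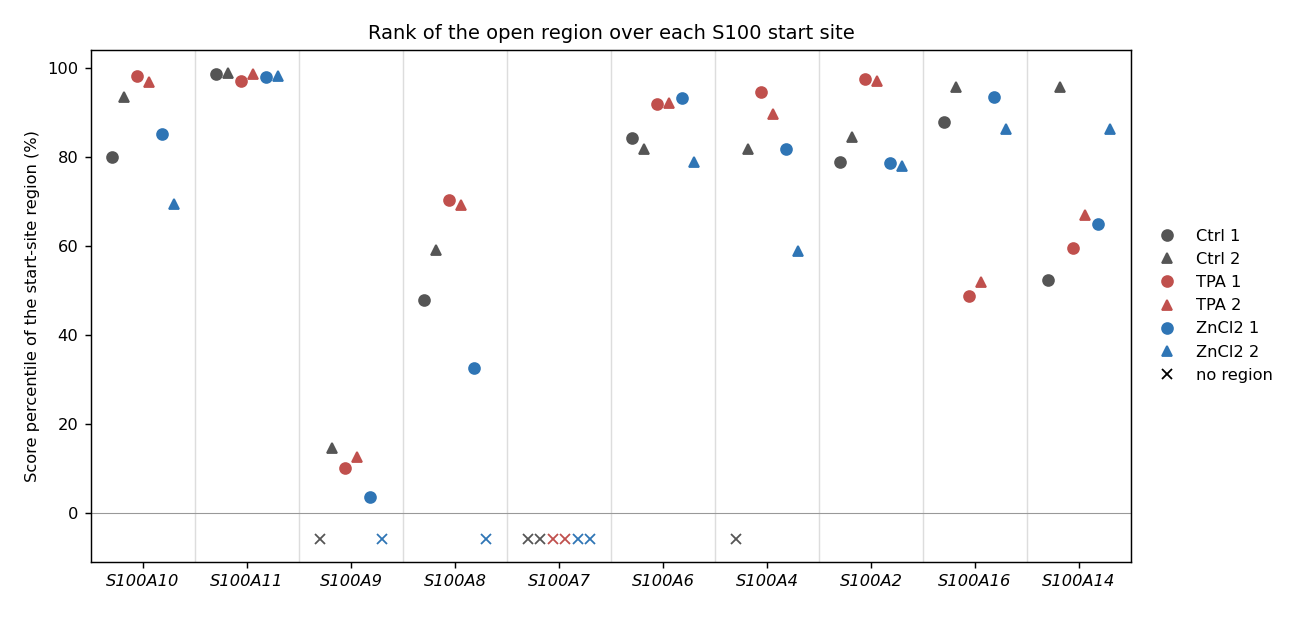
Score percentile of the open region over the start site of each S100 gene, in order along the chromosome, for 6 libraries. Circles are replicate 1, triangles replicate 2, and crosses below 0 mark libraries with no region there. S100A11 lies between 97.1 and 98.8 in all libraries, S100A9 at 14.6 or below, and the TPA points of S100A2 and S100A10 lie above all other points of those genes.

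The 10 genes were compared with each other on the highest-ranked region in the gene plus 5 kb, with a library that had none set to 0. The mean percentile over 6 libraries was 98.2 ± 0.645 (SD) for S100A11, 95.3 ± 3.83 for S100A4 and 94.2 ± 4.12 for S100A14 and S100A16, whose windows hold the same best region. It was 92.1 ± 7.31 for S100A2, 87.1 ± 11.2 for S100A10 and 86.9 ± 6.16 for S100A6. S100A8 followed with 51.4 ± 26.4, S100A9 with 13.5 ± 16 and S100A7 with 0. Of 45 pairs of genes, 28 differed in the same direction in 6 of 6 libraries, which gives the smallest p that an exact 2-sided sign-flip permutation test allows here, 0.0312. After Benjamini-Hochberg adjustment over 45 pairs 0 were at or below 0.05, so no neighbours in this order were separated by the adjusted test. Of the 28 pairs, 7 are with S100A7, whose value of 0 fixes their direction, and S100A14 and S100A16 enter with identical values. Without S100A7 and with S100A14 and S100A16 taken once, 17 of 28 pairs of 8 genes were at the smallest p, with an adjusted p of 0.0515 in the same exact permutation test. The members closest in level to S100A4 were S100A14 and S100A16, which have the same values, with a mean absolute difference of 1.15 percentile points over 6 libraries. For S100A8 the closest member in level, S100A6, was 35.5 points away.

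For TPA and ZnCl2, a gene was called higher or lower where both libraries of one condition lay above or below both of the other. With 2 libraries against 2, an exact permutation test cannot give a 2-sided p below 0.333, so no difference between conditions could reach p < 0.05. The counts below are therefore set beside the percentage of all protein-coding genes called in the same way.

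TPA, which removes Zn2+, was compared with Ctrl in the 7 members whose start site was open in all 4 libraries. The percentile was higher in TPA for 4 of them, S100A2, S100A6, S100A8 and S100A10, against 11.8% of 8918 genes. It was lower for 2, S100A11 and S100A16, against 21.9%. The call of S100A11 was lost when regions on other contigs were ranked too, at 97 and 98.6 in TPA and 98.6 and 98.7 in Ctrl. At its canonical start S100A11 was also lower in TPA, with a difference of -10.6 points. With lists of equal length, 18887 regions each, S100A16 could not be compared because TPA replicate 2 had no region there. S100A14 was then lower in TPA, with a difference of -38.1 points. Those points are ranked within the cut lists, so their size cannot be set against differences in the full lists. In the full lists the means were 97.2 ± 0.324 (SD, n = 2) in TPA and 81.7 ± 4.02 in Ctrl for S100A2, a difference of 15.6 percentile points. The difference was 9.04 for S100A6, 16.3 for S100A8 and 10.8 for S100A10, while it was -0.849 for S100A11 and -41.5 for S100A16. For S100A14 it was -10.9, and the groups overlapped. Without Ctrl replicate 1 the difference was 4.03 for S100A10 and 10.7 for S100A8, and without Ctrl replicate 2 it was 17.5 for S100A10. That of S100A11 was -0.0828 without TPA replicate 1 and -1.61 without TPA replicate 2. That of S100A14 was -32.5 without Ctrl replicate 1 and 10.8 without Ctrl replicate 2. The median difference was 9.04 over these 7 members and -0.0691 over all genes. When the highest-ranked region in the gene plus 5 kb was used instead, 7 of 8 members were higher in TPA, against 17.6% of 13211 genes, and 1, S100A11, was lower, against 18.2%. By this measure S100A16 was higher by 1.48 points and S100A2 by 2.71, and S100A4 and S100A14 were higher as well. Because S100A14 and S100A16 share their best region, these 7 genes hold fewer than 7 independent regions. The median difference by this measure was 2.45 over the members and 0.852 over all genes.

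The width of the start-site region was larger in TPA for S100A2 alone, against 1.83% of genes. It was smaller for S100A8 and S100A11, against 16.5%. No member's start site was open in both TPA and neither Ctrl library, as for 0.25% of genes, and none was open in both Ctrl and neither TPA library, as for 0.609%.

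ZnCl2 was compared with Ctrl in 6 members. The percentile was higher in ZnCl2 for 0, against 2.74% of 8093 genes, and lower for 2, S100A2 and S100A11, against 13.6%. The differences were -3.46 for S100A2 and -0.734 for S100A11. That of S100A2 was -0.62 without Ctrl replicate 2 and -6.3 without Ctrl replicate 1. With lists of equal length neither call was kept, and S100A10 was the member that was lower in ZnCl2. The difference of S100A2 was then -0.36, ranked within the cut lists. In the full lists the remaining members overlapped, with differences of 3.04 for S100A6, -9.49 for S100A10, 1.51 for S100A14 and -1.82 for S100A16. These values rested on single libraries. Leaving out 1 library in turn gave -4.12 to 10.2 for S100A6, -17.4 to -1.62 for S100A10, -20.1 to 23.2 for S100A14 and -5.84 to 2.2 for S100A16, so that the sign changed for S100A6, S100A14 and S100A16. The median was -1.28 over the members and -2.77 over all genes. For the highest-ranked region in the gene plus 5 kb, 0 of 7 members were higher, against 2.99% of 12033 genes. There, 5 were lower, against 14.9%: S100A2, S100A4, S100A11, S100A14 and S100A16. S100A14 and S100A16 share their best region and have the same values, so they do not count as independent. ZnCl2 replicate 2, which had the shortest list, had the lowest value of the 6 libraries for 4 of these 5 genes. The part of list length in these values was not tested.

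Start-site regions were wider in ZnCl2 for S100A2 and S100A10, against 10.7% of genes, and narrower for S100A11, against 2.61%. The number of members that were open in both ZnCl2 and neither Ctrl library was 0, against 0.11%, and the number lost in both was 0, against 0.125%.

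TPA and ZnCl2 move Zn2+ in opposite directions, and were compared directly in 7 members. The percentile was higher in TPA for 3, S100A2, S100A4 and S100A10, against 21.8% of 8120 genes, and lower for 1, S100A16, against 17.7%. The differences were 19 for S100A2, 21.8 for S100A4, 20.3 for S100A10 and -39.6 for S100A16. Without ZnCl2 replicate 2 they were 10.4 for S100A4 and 12.4 for S100A10, and without ZnCl2 replicate 1 that of S100A4 was 33.2. With lists of equal length S100A14 was lower in TPA in place of S100A16. The groups overlapped for S100A6, S100A11 and S100A14, with differences of 6, -0.115 and -12.4. Leaving out 1 library in turn gave -1.16 to 13.2 for S100A6, -0.881 to 0.651 for S100A11 and -23.1 to -1.61 for S100A14. For the highest-ranked region in the gene plus 5 kb, 5 of 7 were higher in TPA, against 27.6% of 12136 genes, and 0 were lower, against 14.4%. S100A14 and S100A16, which share their best region, were then both higher in TPA by 7.29 points. No start-site region was wider in TPA, against 2.71% of genes, and those of S100A4, S100A10, S100A14 and S100A16 were narrower, as were 54.8% of genes. The members open in both libraries of one condition and neither of the other numbered 0, against 0.714% of genes for TPA and 0.859% for ZnCl2.

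**Figure D3:**
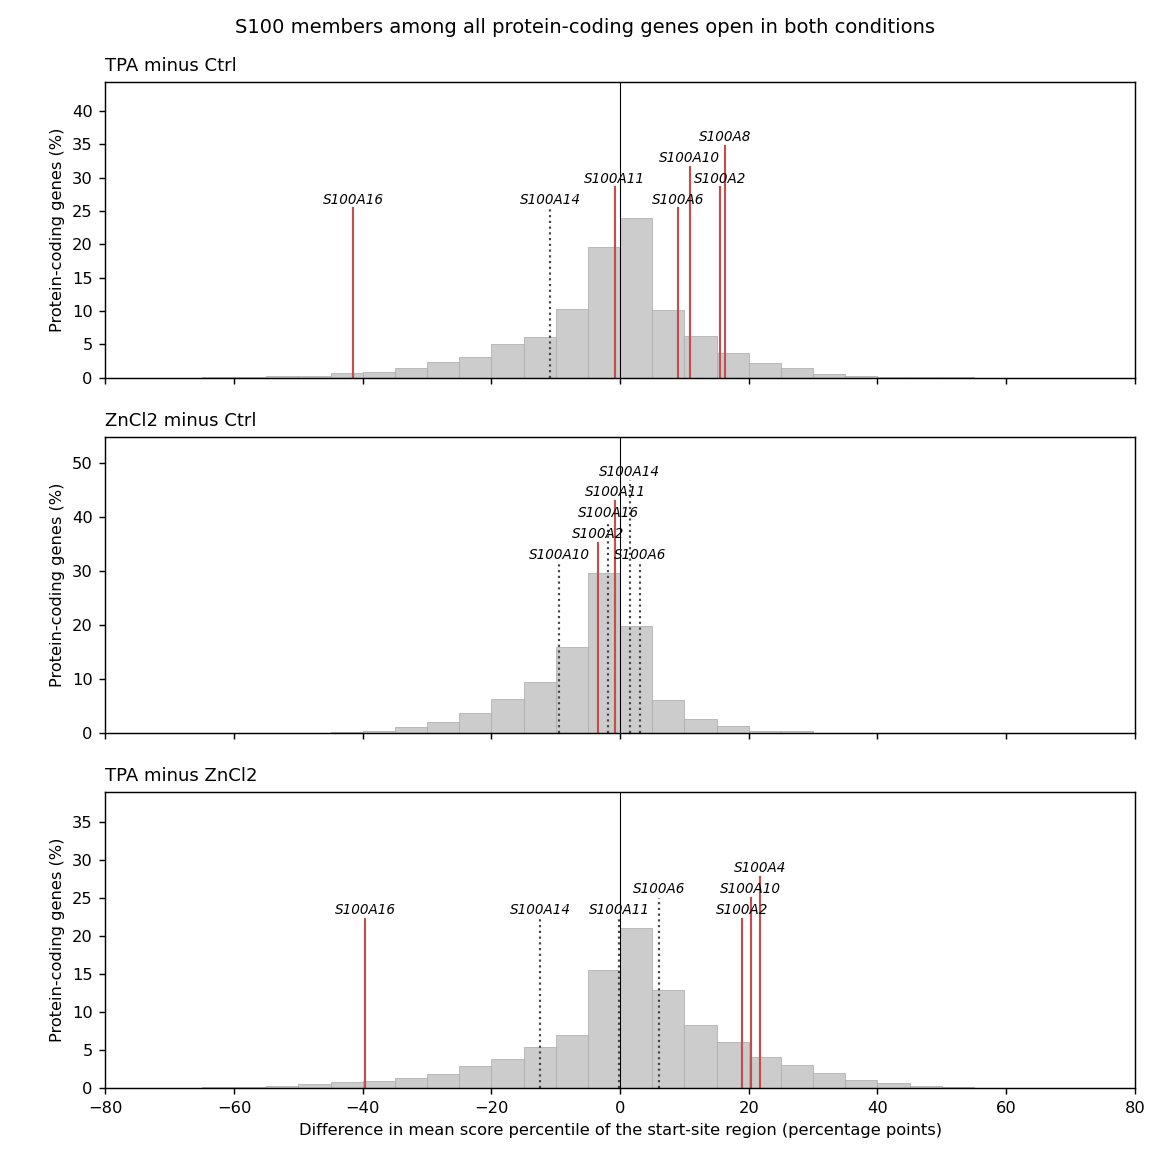
Histograms of the difference in mean start-site score percentile between conditions, in percentage points, for all protein-coding genes open in all 4 libraries compared (grey, percent of genes), with each S100 member as a line. Solid red lines are members whose groups do not overlap and dotted lines those that do. With TPA minus Ctrl, S100A2, S100A6, S100A8 and S100A10 lie at 9.04 to 16.3 and S100A16 at -41.5, while with ZnCl2 minus Ctrl the members lie between -9.49 and 3.04.

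**Figure D4:**
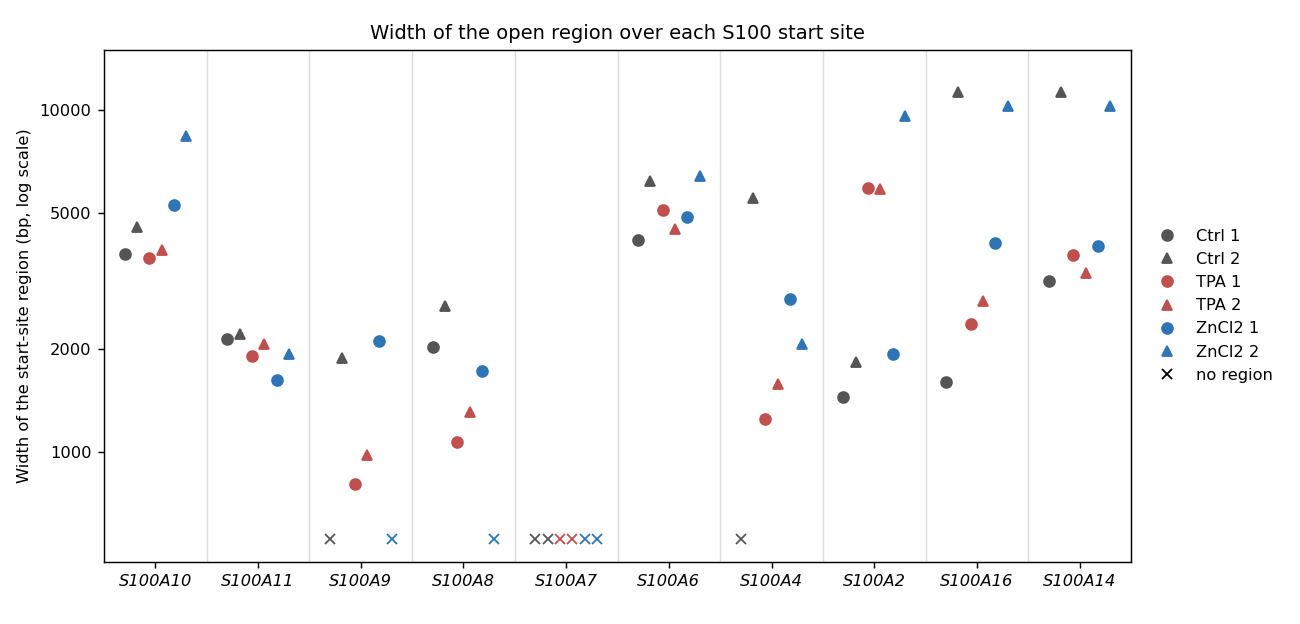
Width of the region over each start site in bp on a log scale, with symbols as for the percentiles and crosses for libraries with no region. S100A11 stays between 1630 and 2220 bp, S100A2 is widest in TPA and ZnCl2 replicate 2, and the widest points of S100A14 and S100A16 are the regions they share.

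The open sequence in each window varied as much between the libraries of a condition as between conditions for several members. In S100A4 it was 3150 and 12478 bp in Ctrl, 3478 and 3868 bp in TPA, and 6458 and 6130 bp in ZnCl2. The Ctrl libraries lay on both sides of the others. In S100A8 it was 3220 and 4053 bp in Ctrl, 1930 and 2330 bp in TPA, and 4310 and 0 bp in ZnCl2, so the TPA libraries were below both Ctrl libraries. In S100A16 it ranged from 8100 to 11365 bp over the 6 libraries. The spread between the replicates was 1626 to 6596 bp (SD, n = 2) in Ctrl for the 7 members S100A2, S100A4, S100A6, S100A10, S100A11, S100A14 and S100A16. For each of these members the spread was smaller in TPA, at 56.6 to 1584 bp as a range over genes. In ZnCl2 it was 232 to 2331 bp, smaller than in Ctrl for each of them but S100A2. For S100A2 it was 2107 bp in ZnCl2 against 1838 bp in Ctrl. Outside these members, the spread for S100A8 was 589 bp in Ctrl, 283 bp in TPA and 3048 bp in ZnCl2.

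**Figure D5:**
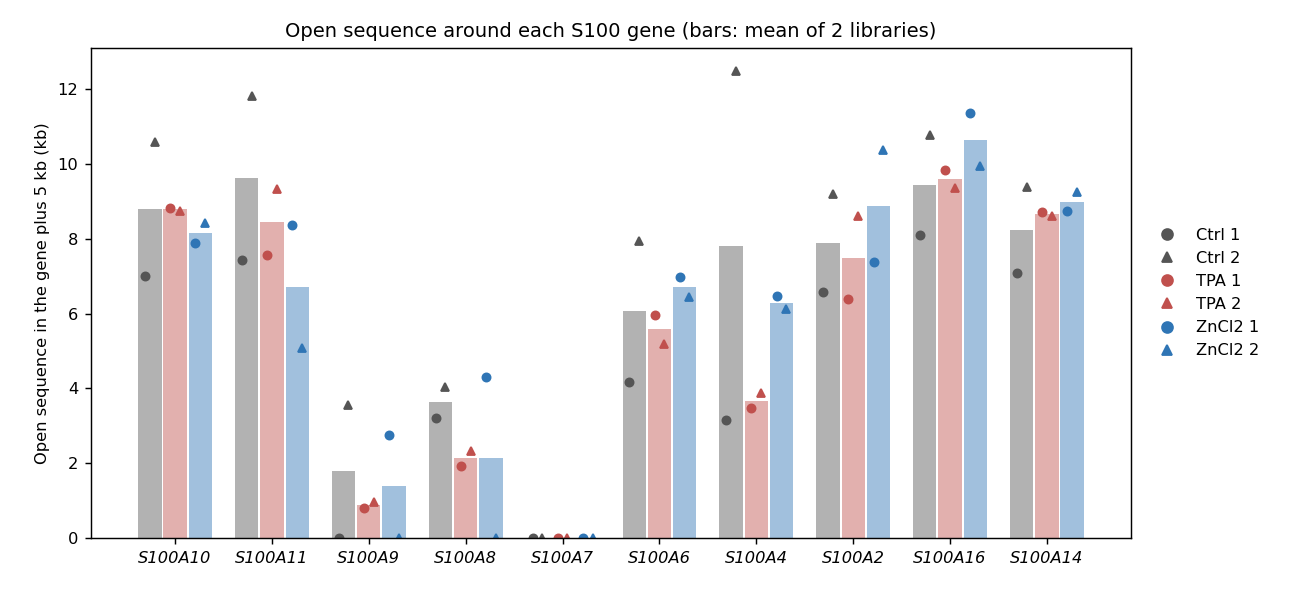
Open sequence in kb in each S100 gene plus 5 kb. Bars are the mean of 2 libraries and points the libraries (circles replicate 1, triangles replicate 2). Ctrl replicate 2 is above Ctrl replicate 1 in every gene but S100A7, where all libraries are at 0.

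The other genes of the region give the surroundings of these results. Of 7 further S100 genes on 1q21, S100A1, S100A3 and S100A12 had an open start site in 6 of 6 libraries. S100A5 was open in Ctrl replicate 2 only, S100A13 in ZnCl2 replicate 2 only, and S100A7A and S100A7L2, the relatives of S100A7, in 0. The start-site percentile of S100A12, which encodes another Zn2+-binding protein of neutrophils, was 78.9 and 77.8 in Ctrl, 85.9 and 87.9 in TPA, and 76.3 and 43.9 in ZnCl2. That of S100A1 was 89.8 and 85 in Ctrl, 94.6 and 93.6 in TPA, and 90.6 and 55.2 in ZnCl2. For both genes the TPA libraries were above the other 4. Both were named after their values were seen, and the share of all genes with this order was not computed. The 4 S100 genes on other chromosomes, S100B, S100G, S100P and S100Z, were open in 0 libraries. Between the members lie genes of the epidermal differentiation complex, many of which encode proteins of the cornified skin barrier. Of 41 genes of this complex 36 were open in no library, and 0 to 4 were open in any given library.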

How the data were processed

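ATAC-seq was performed by the authors on nuclei prepared by the Omni-ATAC protocol. The pooled libraries were sequenced more than once, and runs of the same library were joined and counted once. Adapters were trimmed with BBDuk, reads were mapped to hg38 with HISAT2 2.1.0 and handled with SAMtools 1.8 and FastQC 0.11.8 (the submitters' processing notes), and HMMRATAC called open regions in each library. The deposited score of each region, a whole number of at least 30, is of a kind not given in the sources used here. The lists were not filtered for blacklisted sequence or merged. Longer or fused calls can change the rank of a start site.

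Within each list, regions of the assembled chromosomes were ranked and joined to GENCODE release 44 genes with Python 3.11.15, NumPy 2.4.6, pandas 2.3.3 and SciPy 1.17.1. Any overlap of at least 1 bp counted. Groups and replicate numbers came from the labels. The procedure was tested on simulated data. By rule, every member was named, with any other S100 gene whose start site lay in a member's region. The member nearest in level was found for each member and is given above for S100A4 and S100A8 only. The members and lists were chosen with earlier results of these data known. S100A1, S100A12, S100A5, S100A13 and the marker genes were named after their values were seen. Same-numbered libraries of 2 conditions correlated at 0.173 (TPA and Ctrl), -0.458 (ZnCl2 and Ctrl) and -0.14 (TPA and ZnCl2) in their deviations over 7880 genes.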

Additional observations from a re-analysis of the deposited data

How the results depend on the processing

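The correlations of same-numbered libraries, which were of both signs, do not settle whether the replicate numbers pair the libraries. With the number as a replicate block, 6 members were called in the same direction in both pairs between TPA and Ctrl, 2 between ZnCl2 and Ctrl, and 5 between TPA and ZnCl2, against 6, 2 and 4 without it. With crossed replicate numbers, chosen after seeing the data, the counts were 4 between ZnCl2 and Ctrl and 4 between TPA and ZnCl2. A member called without pairs stays called in either pairing, so these counts cannot fall. The share of all genes called in this way was not computed. The difference in the number of open members in the replicate block was 1, 0 and 1.

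The direction of S100A16 reversed with the highest-ranked region in the gene plus 5 kb, to 1.48 points between TPA and Ctrl and 7.29 between TPA and ZnCl2. The count of members called between ZnCl2 and Ctrl was 1 when each list was cut to its 18887 top regions and 5 with the highest-ranked region in the window. Leaving out 1 library gave 3 to 6 calls between ZnCl2 and Ctrl, 5 to 7 between TPA and ZnCl2, and 6 to 9 between TPA and Ctrl, where 9 came without Ctrl replicate 1. A call cannot be lost when a library is left out, so these counts can only stay or rise. They do not show that the calls are stable, and the share of all genes called with 1 library left out was not computed. Without Ctrl replicate 1, 9 members could be compared instead of 7, since S100A4 and S100A9 had no start-site region in that library. With lists of 18887 regions, S100A9 had an open start site in 0 libraries, S100A8 in 4 and S100A16 in 5. For single members, 138 values over 20 differences were computed under other processing, of which 37 moved by more than the spread between replicates, 2 called differences reversed (S100A16, above) and 6 in all changed sign. The other 4 changes of sign were those of S100A14, whose groups overlapped: 1.48 between TPA and Ctrl, -5.69 and -5.81 between ZnCl2 and Ctrl, and 7.29 between TPA and ZnCl2. Of the 37 moves, 13 came when the lower-ranked 50% of every list was dropped, and 9 with lists of 18887 regions. Ranks were then taken within the cut lists, so a difference could change in size through the scale alone. For S100A2 between TPA and Ctrl it went from 15.6 to 31.1 with the lower 50% dropped. Moves with the cut lists therefore do not show that a result is unstable. The other moves came with full lists. Of these, 7 came at the canonical start, 5 with the highest-ranked region in the gene plus 5 kb, and 3 with that within 500 bp of the start site. Under each of these settings the difference of S100A2 between TPA and Ctrl was 2.71, against 15.6, and it was still called higher in TPA. Leaving out 1 library changed the sign of 9 of 80 values, in 6 of 20 differences. None of these 6 was called, but a called difference cannot change sign in this way, because its groups do not overlap. With 2 libraries a side, leaving out 1 cannot move a mean beyond that spread and the replicate block leaves it as it was, so these are not counted as stable.

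Depth could not be taken into account, since no counts were given, and a start site with no region is below the calling limit of that library and not shown to be closed. ZnCl2 replicate 2 had the shortest list.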
